A study of Mus musculus with 62 samples.

Results

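The mitosis genes are 40 listed mouse genes whose products carry a cell through division, among them the cyclins and kinases of mitotic entry, the kinetochore and the spindle, the checkpoint that times anaphase, and the machinery of cytokinesis. They were taken by symbol from a deposited table of 37620 genes, in which each of the 40 has 1 row with an Ensembl identifier (Ccnb1 is ENSMUSG00000041431, Mki67 is ENSMUSG00000031004). RNA had been sequenced in bulk from 62 mouse libraries, 48 of them from 24 clones of ER-Hoxb8 cells, a line in which Hoxb8 fused to the hormone-binding part of the estrogen receptor holds marrow progenitors in an immature, dividing state. Each clone gave 1 library of monocytic cells and 1 of granulocyte-monocyte progenitors, so each clone is a line of its own with no repeat. Titles mark each progenitor library Plus and each monocytic library Minus, without saying of what. Cell state and the condition so marked cannot be told apart. Culture was in RPMI with added serum and the growth factor SCF. The other 14 libraries came from primary monocytes sorted from bone marrow by flow cytometry, 2 each of nonclassical, intermediate and classical monocytes and 2 each of populations named class 2, class 3, class 4 and class 1. The labels give no strain, age, sort gate or class definition, and nothing in them ties replicates to separate animals or cultures, so p-values cover only the spread between these samples. Time in culture after the switch to monocytic cells is not given either.

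Mitosis begins when Cdk1 bound to B-type cyclins is switched on. Chromosomes condense, kinetochores attach them to the spindle, and the spindle checkpoint holds back the anaphase-promoting complex until all are attached; the central spindle then guides cytokinesis. Most of these genes are transcribed in a burst late in the cell cycle, so in bulk RNA their level is widely used as a readout of the share of dividing cells. Classical monocytes arise from dividing progenitors in the marrow, and nonclassical monocytes are known as a non-dividing population. In bulk libraries fewer dividing cells and less RNA per cell cannot be told apart.

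Total counts ran from 1827322 to 34542789 in monocytic libraries, from 362033 to 47314297 in progenitor libraries and from 21153002 to 35019854 in primary libraries. Monocytic libraries of clones 15 to 25 were shallow, with at most 9120772 counts against at least 22853677 in those of clones 1 to 13, and the labels name no batch. Defining markers were checked for the clones and the 3 subsets. Cd34, a surface protein of immature blood cells, ranged from 3.72 to 115.9 CPM (counts scaled to library size) in monocytic libraries and from 900.9 to 3315 CPM in progenitors. Ly6c2, the antigen of classical monocytes, stood at 17.1 and 25.2 CPM in nonclassical, 79.3 and 125.5 CPM in intermediate and 2498 and 2945 CPM in classical libraries, and a near-identical copy of this gene can share its reads. All 40 mitosis genes passed the filter on low counts in each comparison. By a later annotation of gene models, 13 of the 40 overlap exons of another gene, among them Ccna2 with Exosc9 and Cdc20 with Elovl1 on the opposite strand; the strand setting of the counting is not given, so reads of such pairs cannot be told apart.

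Promoters of the mitosis genes share a sequence feature that the choice of genes did not use. The cell cycle genes homology region, TTTGAA, is bound by the DREAM and MuvB complexes, which keep late cell cycle genes silent in resting cells and help switch them on before division, often beside CCAAT boxes bound by NF-Y. RefSeq promoters of build GRCm38.p6, 250 bases before to 50 after the start, were matched by symbol for 32 of the 40 genes, 34 promoters in all; Aurkb, Ccna2, Foxm1, Kif20a, Pbk, Shcbp1, Stmn1 and Tpx2 were not matched. TTTGAA on either strand was found in 27 of these 34 promoters (79.4%) and in 17.9% of all 32851 promoters of the table. Among 29 promoters of DNA replication genes, which are made earlier in the cycle, it was found in 20.7%. CCAAT on either strand was found in 79.4% of the mitosis promoters, against 69.0% of the replication promoters and 37.4% of all, and 2 or more CCAAT boxes in 52.9%, against 44.8% and 11.7%. An E2F-type site (TTGGCGC or TTCGCGC, either strand), typical of genes of DNA synthesis, was found in 14.7% of the mitosis promoters, 31.0% of the replication promoters and 3.89% of all. TTGGCGC can share letters with ATTGG, the reverse complement of CCAAT. A match describes the letters and not binding.

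Many matches lay close to the gene start. Within 100 bases around the start, a window chosen after positions were seen, TTTGAA was found in 73.5% of the mitosis promoters, 10.3% of the replication promoters and 4.94% of all promoters. The windows of 5 genes are printed, out of 9 promoters with the motif wholly in the last 40 bases before the start, to set the gene that was higher in monocytic cells than in progenitors, Iqgap3, beside 4 that were lower, Cdk1, Kif11, Top2a and Cdc20. Each line gives the 100 RefSeq bases before the start, 5′ to 3′ on the strand of the gene, from GRCm38.p6; capitals mark TTTGAA (or TTCAAA, its reverse complement) and CCAAT (or ATTGG).
Cdk1, chr10:69352913-69353012, minus strand: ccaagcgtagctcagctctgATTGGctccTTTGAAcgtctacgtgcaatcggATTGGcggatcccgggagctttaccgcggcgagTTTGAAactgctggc
Top2a, chr11:99024190-99024289, minus strand: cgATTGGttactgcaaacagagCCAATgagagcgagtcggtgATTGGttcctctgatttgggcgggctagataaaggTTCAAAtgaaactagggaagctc
Kif11, chr19:37376282-37376381, plus strand: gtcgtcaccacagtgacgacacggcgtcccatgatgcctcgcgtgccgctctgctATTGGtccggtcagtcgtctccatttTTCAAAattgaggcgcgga
Cdc20, chr4:118437344-118437443, minus strand: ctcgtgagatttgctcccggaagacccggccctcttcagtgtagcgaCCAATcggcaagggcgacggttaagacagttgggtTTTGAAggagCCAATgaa
Iqgap3, chr3:88081951-88082050, plus strand: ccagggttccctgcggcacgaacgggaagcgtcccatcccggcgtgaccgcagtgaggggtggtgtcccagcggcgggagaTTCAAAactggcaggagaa
Top2a holds 3 CCAAT boxes in this window and Iqgap3 holds 0.

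**Figure D1:**
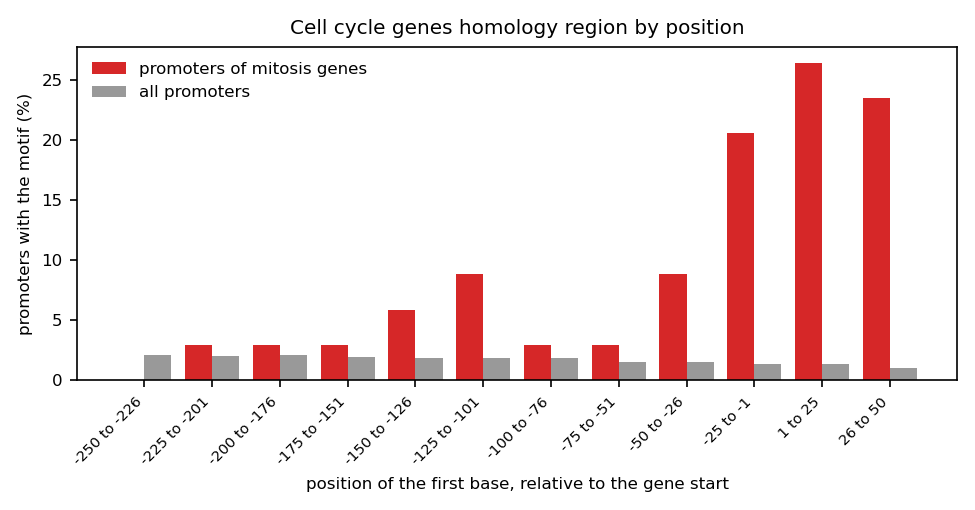
Share of promoters (vertical axis, percent) whose TTTGAA motif, on either strand, starts in each 25-base bin of distance from the gene start (horizontal axis, bases), for 34 promoters of mitosis genes in red and all 32851 promoters in grey. The red bars reach 20.6%, 26.5% and 23.5% in the last bin before the start and the first 2 bins after it, where the grey bars stand at 0.971% to 1.38%.

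Across all groups the mitosis genes moved over a wide range of levels. The mean over the 40 genes, in log2 CPM on a scale common to all libraries, was highest in class 3 (8.48) and lowest in class 2 (3.81). Between these stood classical monocytes (7.67), class 1 (7.33), class 4 (7.17), progenitor clones (6.55 ± 0.24, SD, n = 24), intermediate monocytes (6.52), monocytic clones (5.999 ± 0.868, SD, n = 24) and nonclassical monocytes (4.52). Neighbours in this order often overlapped: progenitor clones ran from 5.77 to 6.87 and included both intermediate libraries (6.43 and 6.62), and monocytic clones ran from 3.29 to 7.26. Class 3 had the highest mean for each of the 40 genes, but for Mki67 it was level with classical monocytes (9.011 and 9.010 log2 CPM). Class 2 was the lowest for 34, nonclassical monocytes for 5 and monocytic clones for Stmn1. As a share of all counts, the 40 genes took 1.54% and 1.58% in class 3, 0.0591% and 0.0719% in class 2, and a median of 0.369% in monocytic clones against 0.568% in progenitors. Cultures and sorted cells differ in more than cell type, and their levels are given side by side without a test.

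**Figure D2:**
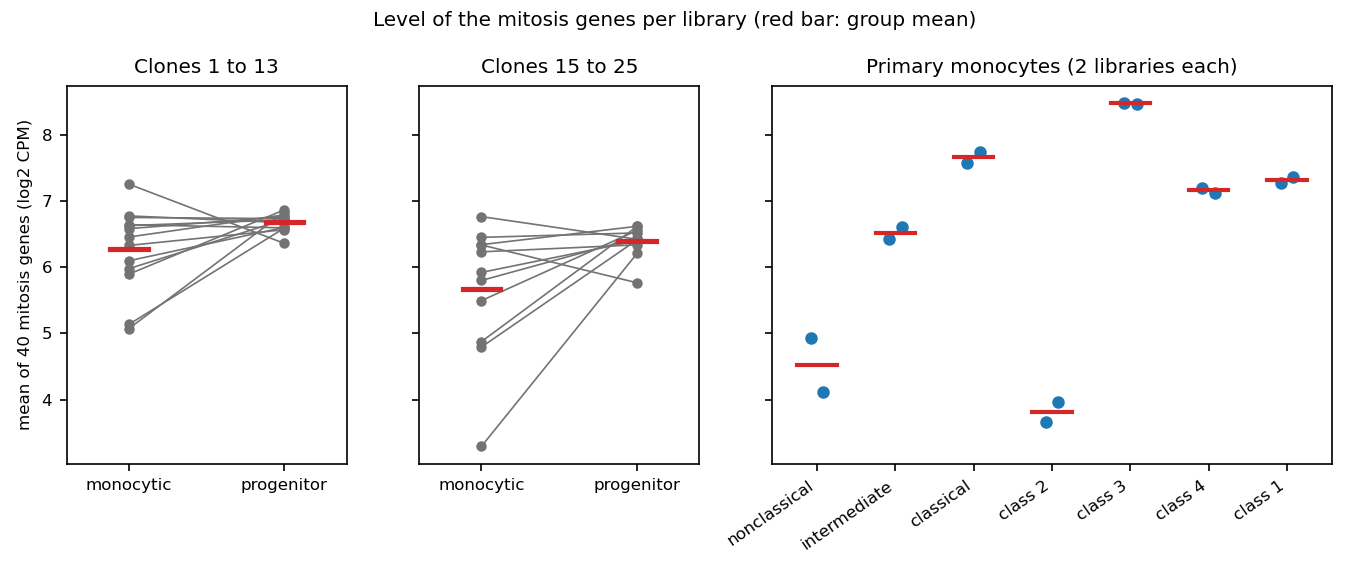
Mean level of the 40 mitosis genes (vertical axis, log2 CPM on a common scale) in each library: monocytic and progenitor cells of each clone joined by a line, in both sets of clones, and the primary populations with 2 libraries each; red bars are group means. Progenitor clones lie close together while monocytic clones spread down to 3.29, and class 3 and class 2 mark the top and the bottom of the primary cells.

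Monocytic cells were compared with the progenitors of the same clone to see how far mitosis genes change on maturation. Their decrease was uneven: 21 of the 40 genes were lower in monocytic cells, Iqgap3 was higher and 18 did not pass the test (edgeR quasi-likelihood test with clone as a block, Benjamini-Hochberg adjusted p under 0.05 over all genes). Over all 11614 genes tested, 40.1% were lower and 38.5% higher, 78.6% in all, so 21 of 40 lower is not far from the background and 1 of 40 higher is well under it. The median change of the 40 was -0.42 on the log2 scale, against -0.02 over all genes, and 35 of the 40 estimates were below 0. The largest decreases were those of Stmn1, Pbk, Ect2 and Ccnb1, each lower in all 24 clones. Scaling by library totals alone moved the median of all genes to -0.45 and that of the 40 to -0.85, about the same distance apart; 35 of the 40 then passed as lower and none as higher.

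Among the 9 genes of mitotic entry, 6 were lower, against 40.1% of all genes, and 3 did not pass. Ccnb1, the cyclin that activates Cdk1, had a lowest, median and highest level of 6.06, 34.4 and 59.1 CPM in monocytic cells, against 42.3, 66.0 and 120.6 CPM in progenitors. The ranges overlapped, but within each of the 24 clones the monocytic library was the lower, by -1.19 on average (SE 0.188, edgeR adjusted p = 2.03e-06). Pbk, a kinase active in mitosis, fell to 4.33, 59.8 and 109 CPM in monocytic cells, against 54.1, 112 and 180 CPM in progenitors (log2 change -1.28, SE 0.172). Cyclin A2 (Ccna2), which acts in S phase and at mitotic entry, changed by -0.81 (SE 0.170) and Nek2, a kinase that separates centrosomes, by -0.95 (SE 0.154), and they were lower in 22 and 23 of 24 clones. Cdk1 itself, the catalytic partner of these cyclins, changed less. It spanned 11.7, 172 and 352 CPM in monocytic cells, against 123, 213 and 311 CPM in progenitors, and was lower in 16 clones (log2 change -0.59, SE 0.212, adjusted p = 0.013 in edgeR). The monocytic libraries thus lay both below and above the whole progenitor range. Ccnb2 was lower by -0.44 (SE 0.168).

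Plk1, a kinase that promotes entry and later cytokinesis, did not pass. Its lowest, median and highest levels were 8.66, 83.0 and 134 CPM in monocytic cells, against 46.2, 70.4 and 114 CPM in progenitors, with a log2 change of 0.05 (SE 0.180) that turned to -0.38 under scaling by library totals. Foxm1, the transcription factor that drives many of the other genes listed, had a change of -0.32 (SE 0.189, edgeR adjusted p = 0.12), and Aurka, the kinase of the spindle poles, had one of -0.15 (SE 0.173). Within the same step, Ccnb1 was lower in every clone and Plk1 in 9 of 24.

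Of the 8 genes of the chromosomal passenger complex, centromere and kinetochore, 3 were lower, near the share of all genes (40.1%). Aurkb, the kinase of the passenger complex, had 15.6, 81.5 and 162 CPM in monocytic cells at the lowest, median and highest, against 68.9, 128 and 166 CPM in progenitors, and was lower in 20 of 24 clones (log2 change -0.79, SE 0.155). Its partner Birc5 (survivin) passed narrowly at -0.45 (SE 0.207, edgeR adjusted p = 0.0497). Nuf2, a subunit of the microtubule-binding Ndc80 complex, was lower by -0.41 (SE 0.178), while its partners Ndc80 and Spc25 had changes of -0.34 (SE 0.198) and -0.10 (SE 0.169) that did not pass. Cenpa, the histone variant that marks centromeres, had 31.2, 121 and 253 CPM in monocytic cells and 49.8, 158 and 288 CPM in progenitors, with no passing change (-0.30, SE 0.170). The motor Cenpe and the kinetochore protein Cenpf had changes of -0.27 and -0.28 that did not pass.

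Of the 5 genes of the checkpoint and the anaphase-promoting complex, 4 were lower, against 40.1% of all genes. Ttk, the kinase that starts the checkpoint signal, was lower in 22 clones, with 3.90, 25.7 and 49.9 CPM in monocytic cells against 9.84, 44.6 and 50.3 CPM in progenitors (log2 change -0.93, SE 0.166, edgeR adjusted p = 1.15e-05). Cdc20, the activator of the complex, had 4.33, 73.3 and 142 CPM in monocytic cells and 60.9, 105 and 144 CPM in progenitors (log2 change -0.70, SE 0.185). The monocytic range reached from far below the progenitors up close to their highest value. Bub1 and Bub1b, checkpoint kinases of the kinetochore, were lower by -0.66 (SE 0.180) and -0.51 (SE 0.200). Ube2c, the ubiquitin-conjugating enzyme of the complex, did not pass at -0.26 (SE 0.185).

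Genes of chromosome structure and the spindle split in the same way. Top2a, the topoisomerase that untangles sister chromosomes, had 38.5, 392 and 967 CPM in monocytic cells, against 256, 588 and 772 CPM in progenitors (log2 change -0.62, SE 0.217), and Smc2, a core subunit of condensin, changed by -0.63 (SE 0.162). Mki67, the coat protein of mitotic chromosomes and the usual marker of proliferation, did not pass: 56.3, 428 and 983 CPM in monocytic cells, against 122, 364 and 728 CPM in progenitors, a change of 0.19 (SE 0.249, edgeR adjusted p = 0.5) that was -0.24 under library totals. In 22 of 24 clones Mki67 changed more upward than Ccnb1, with a mean gap of 1.41 ± 0.87 on the log2 scale (SD, n = 24 clones). Among 7 spindle genes, 3 were lower, near the share of all genes (40.1%). Stmn1, which destabilises microtubules, had the largest change of the 40: 3.15, 24.6 and 57.6 CPM in monocytic cells, against 44.9, 75.8 and 115 CPM in progenitors (log2 change -1.88, SE 0.187, adjusted p = 4.99e-10 in edgeR). Kif11, the motor that pushes spindle poles apart, and Ckap2l, a spindle protein, were lower by -0.65 (SE 0.215) and -0.49 (SE 0.179). The spindle proteins Nusap1, Tpx2, Kif22 and Kif2c had changes from -0.36 to -0.04 that did not pass.

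Cytokinesis genes went in both directions. Ect2, which acts in forming the cleavage furrow, was lower in all 24 clones, with 6.49, 48.1 and 95.4 CPM in monocytic cells against 67.2, 105 and 139 CPM in progenitors (log2 change -1.23, SE 0.142). Shcbp1, a midbody protein, and Kif20a, a motor of the central spindle, were lower by -0.71 (SE 0.182) and -0.60 (SE 0.187). Iqgap3, a scaffold protein of the IQGAP family, had 6.06, 60.9 and 127 CPM in monocytic cells, against 16.7, 34.9 and 78.8 CPM in progenitors, and was lower in 5 of 24 clones (log2 change 0.66, SE 0.243, edgeR adjusted p = 0.016). It was the only gene of the 40 that passed as higher, except under library totals, where none did. Its promoter carries the homology region like those of genes that fell, as printed above. Prc1 and Kif23, which bundle the central spindle, had changes of -0.10 (SE 0.172) and -0.34 (SE 0.161), and the furrow protein Anln and the central spindle protein Racgap1 had 0.12 and 0.07; none of the 4 passed.

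**Figure D3:**
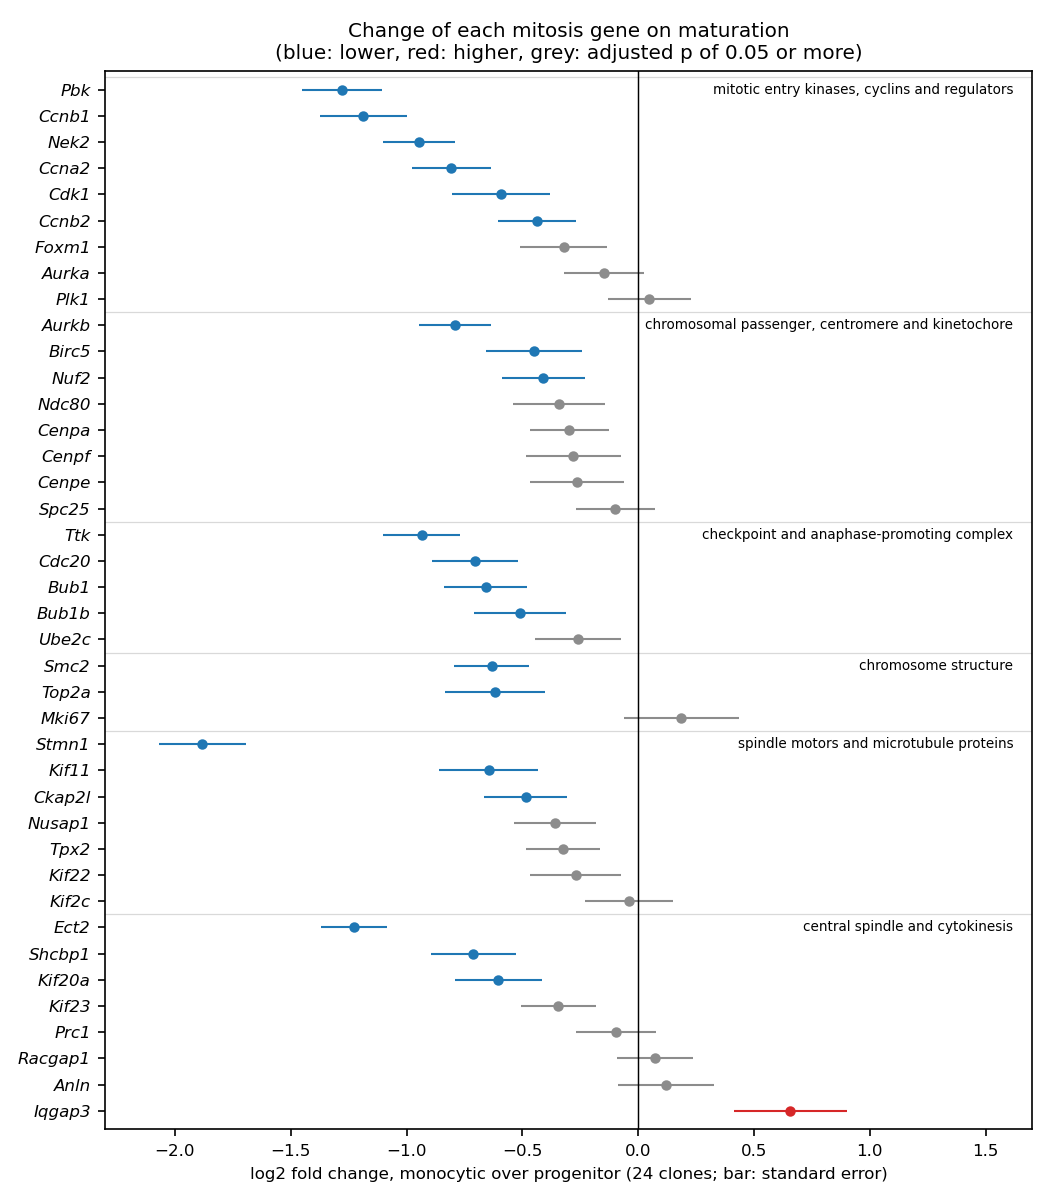
Log2 fold change of each of the 40 mitosis genes, monocytic over progenitor (horizontal axis), with its standard error derived from the edgeR test of 24 clones. Genes are grouped by role from mitotic entry at the top to cytokinesis at the bottom. Blue genes passed as lower, red as higher, grey did not pass. Changes run from -1.88 for Stmn1 to 0.66 for Iqgap3, with genes that passed and genes that did not inside each role.

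Lists of related genes, also chosen with earlier results known, gave the context. Over all genes tested, 40.1% were lower and 38.5% higher, and several of the counts below lie near those shares. Of 32 genes of DNA replication, 24 were lower and 0 higher, with a median of -0.88; the helicase subunits Mcm7 and Mcm6 changed by -1.81 (SE 0.23) and -1.61 (SE 0.21). Of 24 other centromere and kinetochore genes 15 were lower and 2 higher, with Cenph, Cenpn and Cenpk changed most (-2.19, -1.57 and -1.56). Of 24 other spindle, checkpoint and separation genes 11 were lower and 1 higher: Mad2l1, the checkpoint inhibitor of Cdc20, changed by -1.42, while Pttg1 (securin), the guard of sister cohesion, changed by 0.98. Of 15 other genes of the anaphase-promoting complex 10 were lower and 1 higher, and of 12 condensin and cohesin genes 6 and 1. Of 12 regulators of mitotic entry 5 were lower and 2 higher, among them Cks1b (-1.56), Wee1 (-1.44) and Cdc25b (0.53). Of 22 DREAM, MuvB and E2F genes 9 were lower and 4 higher, with E2f2 at 3.30 and E2f7 at 1.14. Of 16 genes in a mixed list of G1 cyclins, inhibitors of cyclin-dependent kinases and antiproliferative genes, 11 were higher. Btg2 rose by 3.88 (SE 0.19), Cdkn1c by 3.05 (SE 0.40) and Cdkn1a (p21) by 1.95 (SE 0.26). Ccnd2, a cyclin of this list and the cyclin D of the progenitors, changed by -3.05 (SE 0.20).

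Markers of other cell types moved with the same contrast. All 7 neutrophil secondary granule markers were higher, with a summed level from 117 to 70960 CPM in monocytic libraries and from 20.5 to 2237 CPM in progenitors; 7 of 9 monocyte markers were higher, and all 7 progenitor markers and the 4 tested mast cell and basophil markers were lower. All 4 tested B cell markers were lower too, with sums from 0.348 to 16.1 CPM in monocytic libraries and from 12.2 to 434.5 CPM in progenitors, and Cd3e, which defines T cells, was at 0 in all 48 clone libraries. The part of these cells in the change of the mitosis genes was not tested.

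The size of the change varied from clone to clone. The mean change of the 40 genes within a clone averaged -0.51 ± 0.86 (SD, n = 24), with a lowest of -2.84 in clone 15 and a highest of 0.84 in clone 9. It was below 0 in 18 clones. All 40 genes were lower in the monocytic library of clones 1, 15, 20 and 25, while only 7 of the 40 were lower in clone 9. In clone 15 Top2a stood at 38.5 CPM in monocytic cells and 546 CPM in progenitors; in clone 9 it stood at 967 and 340 CPM. The monocytic library of clone 15 held 2783841 counts, and 5 of the 40 genes had under 10 counts there. Without clone 15, a choice made after its values were seen, 19 of the 40 were lower and 1 higher, and the median was -0.34. Without the shallow clone 21, whose progenitor library held 362033 counts, these were 19, 1 and -0.36.

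**Figure D4:**
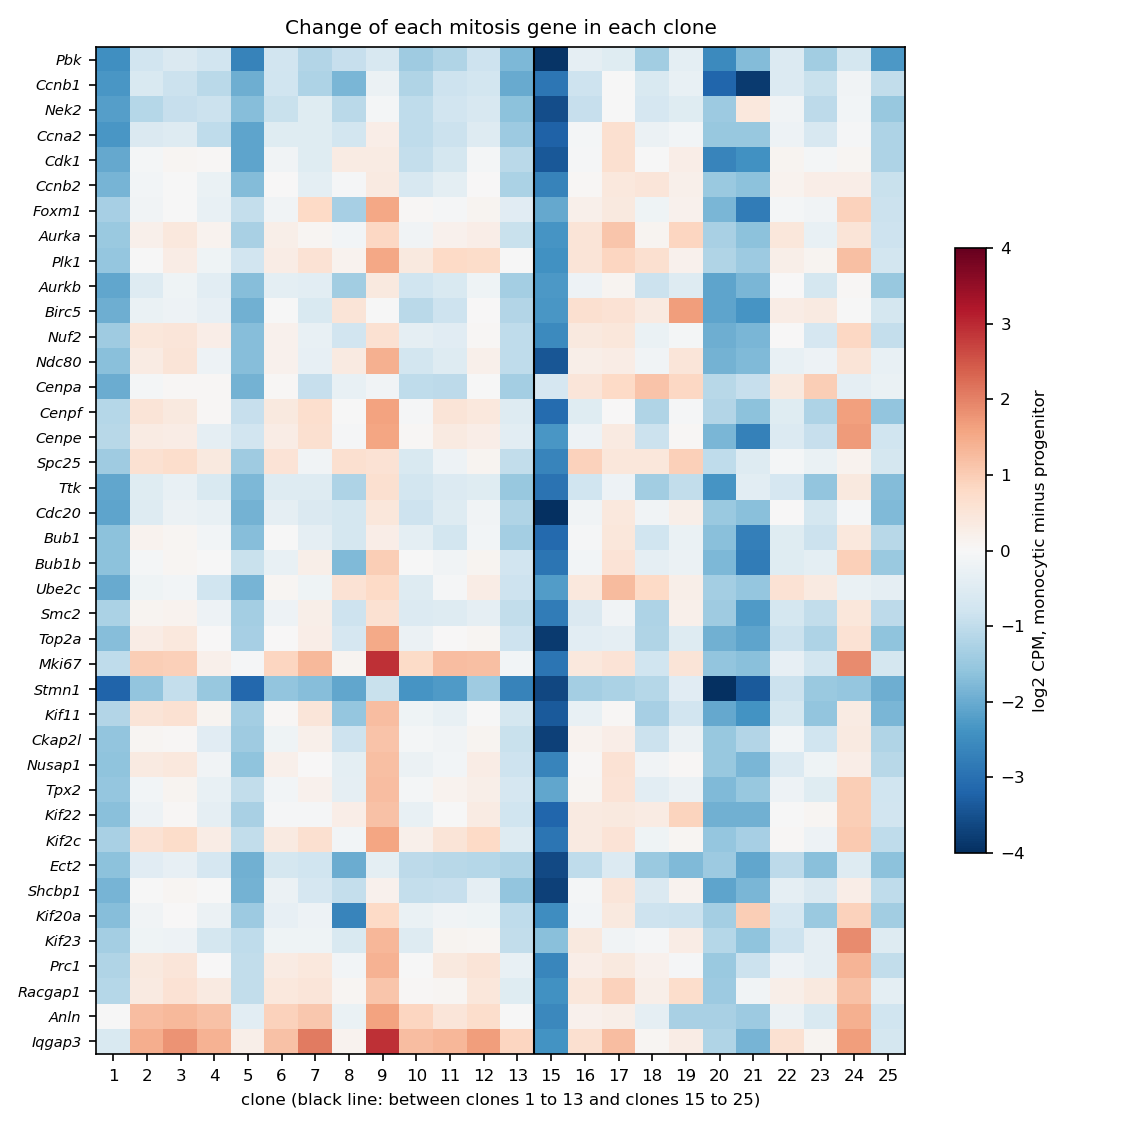
Difference in log2 CPM, monocytic minus progenitor, of each mitosis gene (rows, grouped by role) in each clone (columns), blue where monocytic cells were lower and red where they were higher. Clones 1, 15, 20 and 25 are blue over all 40 rows and clone 9 is red over most, while the rows of Stmn1, Pbk, Ect2 and Ccnb1 are blue in each clone and that of Iqgap3 is mostly red.

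The mitosis genes were spread more widely in monocytic than in progenitor libraries, and they moved as a block. With the clone sets not centred, the SD over clones was larger in monocytic cells for 39 of the 40 genes, all but Cenpa, against 61.5% of all genes. The median SD was 0.913 in monocytic cells and 0.363 in progenitors on the log2 scale, and the median ratio of the 2 SDs was 2.54, against 1.15 over all genes. Ckap2l and Ndc80 had the highest of these uncentred ratios, 3.76 and 3.70. With each clone set centred, the median SD of the 40 genes was 0.860 in monocytic cells and 0.292 in progenitors. Cenpa too then had the larger SD in monocytic cells (0.718 against 0.421). On these centred values, the first principal component carried 91.2% of the variance of the 40 genes over monocytic libraries. All 40 had the same sign. Over progenitor libraries it carried 50.2%, with the same sign for 33. Within clones 1 to 13, whose libraries are deeper, the component carried 90.3% in monocytic and 60.2% in progenitor libraries. The same sign was then shared by 40 and 27 genes.

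A relation between the level of a mitosis gene in progenitors and in the monocytic cells made from them was not detected. The level of a gene in monocytic cells of a clone was set against that in its progenitors over 24 clones, each set centred, with permutations of clones within sets. None of the 40 correlations passed the adjusted threshold over all genes, against 133 of 11614 genes (1.15%) that passed. A count of 0 of 40 is near that share. None of the 40 had an unadjusted permutation p under 0.05, against 13.7% of all genes. The median Pearson r was -0.01 for the 40 genes and 0.14 over all. With Spearman's rank correlation 0 passed and 2 had an unadjusted permutation p under 0.05, against 0.749% and 11.7% of all genes. The smallest adjusted permutation p was 0.389, for Foxm1 (r = -0.42, Spearman's coefficient -0.30 with adjusted p = 0.616), and its r without the 2 clones farthest from the median was -0.16. Without centring 3 of the 40 passed, as did 8.3% of all genes. Without clone 15, a choice made after its values were seen, 0 of the 40 passed and their median r was -0.19. An unadjusted permutation p under 0.05 was then found for 6 of the 40, against 13.8% of all genes. Differences among clones shared by both states were likewise not detected in any of the 40 (edgeR F test of all clone terms), with 3 at an unadjusted p under 0.05, against 11.7% of all genes that passed and 27.2% at the unadjusted threshold. DESeq2 called 4 and a fit with no filter called 1.

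Within clones 15 to 25, 12 of the 40 genes were lower and 0 higher, against 29.9% and 29.1% of 10289 genes tested; within clones 1 to 13, 17 were lower and 3 higher, against 39.3% and 40.9% of 12024 genes. The 3 higher genes of clones 1 to 13 were Iqgap3 (1.23, SE 0.234), Mki67 (0.72, SE 0.243) and Anln (0.68, SE 0.170). The difference between the sets, clones 15 to 25 minus clones 1 to 13, passed for 3 of the 40 genes (edgeR interaction test), all 3 lower in clones 15 to 25, against 17.3% of all genes lower and 6.44% higher. By this test the mitosis genes differed between the sets less often than genes in general. Depth differs between the sets, and set and depth cannot be told apart.

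Anln, which ties actin and septins together in the furrow, had a lowest, median and highest level of 13.9, 45.8 and 84.4 CPM in monocytic cells against 24.8, 71.7 and 86.4 CPM in progenitors of clones 15 to 25. In clones 1 to 13 it had 36.2, 83.5 and 130 CPM in monocytic cells and 40.6, 47.8 and 53.1 CPM in progenitors, and the monocytic library was the higher in 9 of 13 clones. Its changes of -0.55 and 0.68 in these sets differed by -1.25 (SE 0.334, edgeR adjusted p = 0.0083), and this held under each alternative tried. Iqgap3 changed by -0.02 in clones 15 to 25 and by 1.23 in clones 1 to 13, where it was higher in 12 of 13, a difference of -1.27 (SE 0.417, edgeR adjusted p = 0.0287) that did not pass under library totals or with no filter. Kif11 changed by -1.20 in clones 15 to 25, lower in 9 of 11, and by -0.16 in clones 1 to 13, lower in 6 of 13, a difference of -1.06 (SE 0.380, edgeR adjusted p = 0.043). The Kif11 difference did not pass without clone 15 (adjusted p = 0.0724) or without clone 21 (adjusted p = 0.0625). Mki67 came close, with a difference of -1.19 (edgeR adjusted p = 0.0521).

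Among sorted marrow monocytes, the mitosis genes were graded from nonclassical through intermediate to classical cells. Of the 40 genes, 31 were lower in nonclassical than in classical monocytes and 0 higher (edgeR), against 2.9% and 2.91% of 13944 genes tested. The median change was -2.78, with a range from -3.81 to -1.26, against 0.11 over all genes. Both nonclassical libraries lay below both classical ones for all 40 genes, which 32% of all genes did. The count was 0 without either classical replicate, 14 without nonclassical replicate 2 and 36 with DESeq2.

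Foxm1 stood at 12.4 and 11.3 CPM in nonclassical libraries, against 148 and 148 CPM in classical ones (log2 change -3.64, SE 0.191, edgeR adjusted p = 0.00439). Bub1 stood at 8.38 and 8.34 CPM against 103 and 113 CPM, the largest change that passed (-3.69, SE 0.346). Racgap1, a partner of Ect2 in cytokinesis, had 50.2 and 43.3 CPM in nonclassical cells and 473 and 490.2 CPM in classical cells (-3.36, SE 0.201). In each of these the nonclassical values lay close together and far under the classical ones. Mki67 had 42.2 and 53.0 CPM in nonclassical cells against 430.5 and 465 CPM in classical cells (-3.23, SE 0.216). The smallest change that passed was that of Kif20a, with 39.4 and 44.98 CPM against 142 and 147 CPM (-1.78, SE 0.176), and Ndc80 at -1.26 (SE 0.278) did not pass.

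In nonclassical replicate 2 a few mitosis genes were missing altogether. Ccnb1, Iqgap3 and Nek2 had 0 counts there among 29346281, which allows up to 0.102 CPM, and Ccna2 had 4 counts, while the other 36 genes had 10 or more. In nonclassical replicate 1 the same genes stood at 26.4 CPM for Ccnb1, 12.7 CPM for Iqgap3, 26.7 CPM for Nek2 and 58.6 CPM for Ccna2, against 161 and 168 CPM for Ccnb1 in classical cells. None of these 4 passed, with edgeR adjusted p from 0.325 to 0.446. The limit covers counting error only, and the cause was not tested.

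Intermediate monocytes lay between. Of the 40 genes, 7 were lower than in classical cells and 0 higher (edgeR), against 0.918% of all genes lower; 39 of the 40 changes were below 0, with a median of -1.14 against 0.12 over all genes. Racgap1 had 142 and 172 CPM in intermediate libraries, against 473 and 490.2 CPM in classical ones (-1.62, SE 0.188, edgeR adjusted p = 0.0329). Foxm1, Mki67, Cenpa, Tpx2, Aurkb and Top2a also passed, with changes from -1.45 to -1.14. Both intermediate libraries lay below both classical ones for 38 genes, against 31.8% of all genes. Stmn1 differed from the rest, with 302 and 343.5 CPM in intermediate cells and 268 and 353 CPM in classical cells (0.06, SE 0.218), so its ranges overlapped. The 7 calls dropped to 2 with the replicate number as a block, and to between 0 and 2 when any 1 library was left out.

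Between nonclassical and intermediate monocytes no gene of the whole table passed in edgeR (0 of 13944), although 12.3% of all genes and 35 of the 40 mitosis genes had an unadjusted p under 0.05, and DESeq2 called 33 of the 40 as lower, among 1212 genes it called in either direction. All 40 changes were below 0, from -2.96 for Pbk to -0.76 for Ndc80, with a median of -1.68. Both nonclassical libraries lay below both intermediate ones for all 40 genes, against 17.6% of all genes. Pbk showed the widest gap, with 11.8 and 11.6 CPM in nonclassical cells and 70.9 and 111 CPM in intermediate cells.

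Markers of other cells differed between the sorted subsets. The 5 mast cell and basophil markers summed to 1725 and 7005 CPM in nonclassical, 3968 and 8572 CPM in intermediate and 16.7 and 7.40 CPM in classical libraries. B cell markers summed to 1640 and 1525 CPM in nonclassical, 375.5 and 347.8 CPM in intermediate and 32.8 and 34.8 CPM in classical libraries, and 5 of the 8 passed as higher in nonclassical cells. Primary granule markers of promyelocytes, a dividing stage, summed to 145 and 500.5 CPM in nonclassical, 4268 and 13030 CPM in intermediate and 780.4 and 1104 CPM in classical libraries. The part of these cells in the levels of the mitosis genes was not tested. Of the related lists, 8 of 24 centromere and kinetochore genes, 7 of 24 spindle and checkpoint genes, 6 of 32 DNA replication genes and 5 of 12 entry regulators were lower in nonclassical than in classical cells, and 0 of each were higher. Over all genes tested, 2.9% were lower and 2.91% higher.

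The 4 classes of marrow monocytes differed widely in mitosis genes. All 40 genes differed among the classes (edgeR F test), against 43.8% of 13686 genes tested. Class 2 was low throughout: all 40 genes were lower than the mean of the other classes, against 13.1% of all genes, with a median change of -3.84, and both class 2 libraries lay below the other 6 for all 40, against 14.1%. Plk1 had 7.55 and 7.25 CPM in class 2 and from 122 to 410.5 CPM in the other classes (-4.87, SE 0.195, edgeR adjusted p = 5.62e-06). Ube2c at -4.76 (SE 0.143), Nusap1 at -4.71 (SE 0.234) and Ccnb1 at -4.66 (SE 0.135) followed. Racgap1 changed least, with 80.7 and 121 CPM in class 2 against 220.2 to 776 CPM in the other classes (-1.98, SE 0.181), ahead of Cenpa (-2.31) and Ccnb2 (-2.64). Left out 1 at a time, the libraries gave 40 of 40 each time.

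Class 3 was the other extreme. All 40 genes were higher than the mean of the other classes, against 11.3% of all genes, with a median of 2.32, and both class 3 libraries lay above the other 6 for all 40, again against 11.3%. Against class 1 alone, a comparison added after values were seen, all 40 were higher by a median of 1.13, against 5.44% of all genes, and none overlapped, against 32.1%. Iqgap3 had 177 and 174 CPM in class 3, against 51.0 and 50.1 CPM in class 1 (1.80, SE 0.199, edgeR adjusted p = 0.00125). Mki67 had 405 and 524 CPM in class 3 and 175 and 158 CPM in class 1 (1.48, SE 0.184), and Ccnb1 had 427 and 385 CPM against 152 and 166 CPM (1.35, SE 0.122). The smallest change of the 40 was that of Ndc80, with 159 and 139 CPM against 85.4 and 81.5 CPM (0.83, SE 0.223, edgeR adjusted p = 0.0451). Without class 1 replicate 1 the count was 23.

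Genes around the listed ones rose with them in class 3 against class 1: 16 of 24 centromere and kinetochore genes, 16 of 24 spindle and checkpoint genes, 11 of 12 entry regulators, 9 of 12 condensin and cohesin genes and 14 of 32 DNA replication genes were higher. Over all genes tested, 5.44% were higher. Pttg1, which went up in the monocytic clones, was the only gene of these lists that was lower here (-0.87). Markers of other stages moved as well: primary granule markers summed to 6522 and 8149 CPM in class 3 against 779 and 1062 CPM in class 1, with 5 of 5 higher, and monocyte markers to 30990 and 26750 CPM against 63170 and 59050 CPM, with 7 of 9 lower. In class 2 against the others, primary granule markers summed to 138 and 64.4 CPM in class 2. Their part in the mitosis genes was not tested.

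Class 4 and class 1 stood close in the mean over the 40 genes, as given above, and few single genes differed, again in a comparison added after values were seen. Of the 40 genes 2 were higher in class 4 and 4 lower (edgeR), against 10.2% and 15% of all genes, so the counts lie at or under the background. Iqgap3 had 15.7 and 22.99 CPM in class 4, against 51.0 and 50.1 CPM in class 1 (-1.39, SE 0.199, edgeR adjusted p = 0.00246), and Anln had 31.9 and 40.3 CPM against 59.1 and 74.2 CPM (-0.89, SE 0.251). Racgap1 and Shcbp1 passed at -0.63 (SE 0.196) and -0.62 (SE 0.143). Stmn1 was higher, with 423 and 441 CPM in class 4 and 267 and 291 CPM in class 1 (0.63, SE 0.113), and so was Spc25 (0.47, SE 0.136). The calls moved with single libraries, from 0 to 2 higher and from 1 to 8 lower.

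Against class 4, class 3 had 38 of 40 genes higher, against 15.7% of all genes, with a median of 1.31. Iqgap3 (3.19, SE 0.211) and Anln (2.14, SE 0.258) changed most, and Stmn1 (0.30) and Ttk (0.90) did not pass. Contrasts of class 4 and of class 1 with the mean of the other classes were taken on the log scale, where the low levels of class 2 weigh heavily, and the libraries overlapped for all 40 genes in both. By this measure class 4 had 26 genes higher, against 20.5%, and 1 lower, against 19.4%, which was Iqgap3 (-0.64). Class 1 had 31 higher, against 6.43%, but 8 and 9 when either class 1 library was left out. These signs do not give the order of the CPM means: Ccnb1 passed as higher in both, yet averaged 128 CPM in class 4 against 190.9 CPM in the other classes, and 159 CPM in class 1 against 180.5 CPM. Markers of other lineages differed between class 4 and class 1: neutrophil granule markers summed to 33170 and 44580 CPM in class 4 against 863 and 1316 CPM in class 1, with 7 of 7 higher, and erythroid markers to 3430 and 4394 CPM against 46.7 and 104 CPM, with 6 of 7 higher. B cell markers summed to 2415 and 1895 CPM in class 4 and 287 and 284 CPM in class 1, with 6 of 8 higher. The part of these cells in the mitosis genes of class 4 was not tested.

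**Figure D5:**
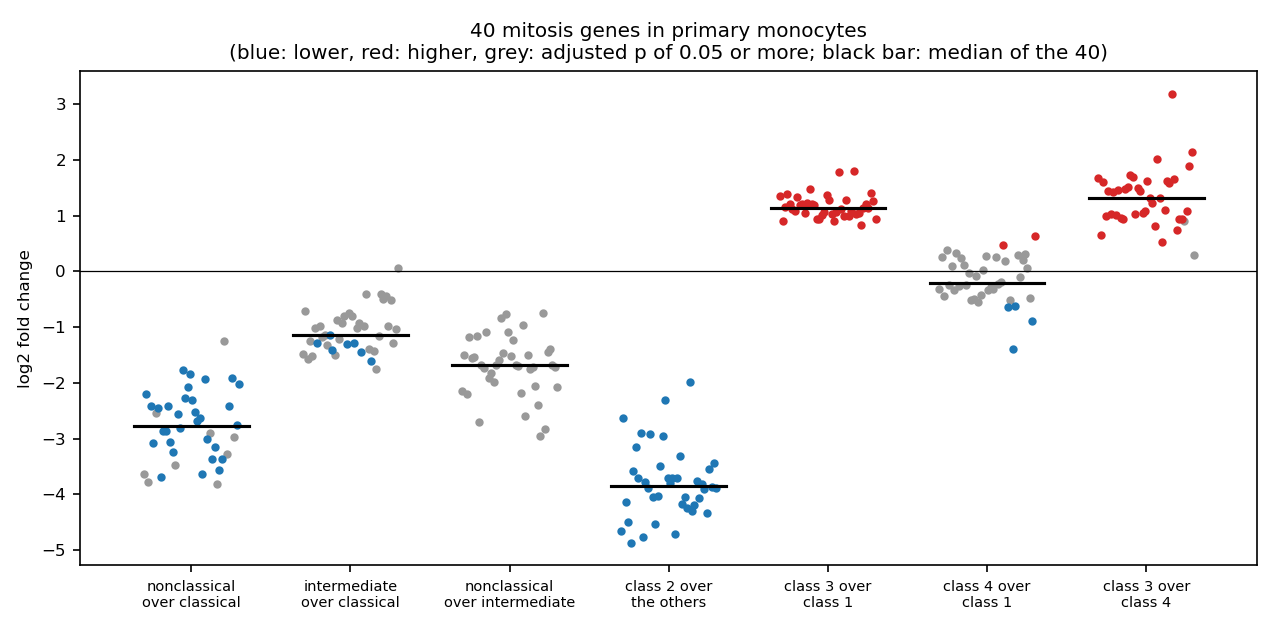
Log2 fold change of each mitosis gene in comparisons of sorted marrow monocytes (vertical axis, tested over compared population), 1 point a gene. Nonclassical cells lie below classical cells with a median of -2.78, class 2 below the other classes with a median of -3.84, and class 3 above class 1 with a median of 1.13.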

How the data were processed

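RNA of 62 libraries had been read in bulk and counted by the authors. The tools and build named are HTSeq 0.6.0, STAR 2.7.3a and mm9, per the submitters' processing notes, and the deposited table holds raw counts per gene; the strand setting is not given in the sources used here. A column of the table that matches no sample (1) was not used. Genes were kept by edgeR's filterByExpr with a minimum count of 10, scaled by TMM and tested with edgeR 4.0.16 (quasi-likelihood, R 4.3.3, Benjamini-Hochberg adjusted p under 0.05 over all genes tested), separately for clones, subsets and classes. Levels are CPM scaled within each fit, and log2 levels use a prior count of 2. Each standard error (SE) of a log2 change was derived from the edgeR test, as the absolute change divided by the square root of its F statistic. Clone was a block because both libraries of a clone come from that clone, per the labels; profiles of the same clone correlated by 0.236 on average, against -0.00437 for other pairs, and 21 of 24 own pairs were above 0.1. Deviations of same-numbered subset libraries correlated by 0.18 to 0.384 over the 3 pairs of subsets, so a fit with replicate number as a block is given where it changes a count. Alternatives were other size factors, DESeq2 1.42.0, other filters, no block, and libraries left out. Correlations used 100000 permutations. The scripts were tested on simulated data. All 40 genes could be named; 15 were set to be described in the clones, with up to 4 of the largest changes in each direction and the smallest elsewhere. The members, lists and rules were chosen with earlier results of these data known. Gene overlaps came from a later annotation, matched by identifier. The limit given for 0 counts covers counting error only, while standard errors and p-values cover the spread between libraries.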

Additional observations from a re-analysis of the deposited data

Results flagged for a closer look

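The change from progenitor to monocytic cells differed between clones 15 to 25 and clones 1 to 13 by the interaction test for 3 of the 40 mitosis genes, all 3 lower, against 17.3% of all genes lower and 6.44% higher. That count lies under the background. The difference was -1.27 on the log2 scale for Iqgap3, -1.25 for Anln and -1.06 for Kif11 (edgeR, adjusted by Benjamini-Hochberg over all genes, p = 0.0287, 0.0083 and 0.043). The Kif11 difference did not pass without clone 15, without clone 21, under RLE size factors, under library totals or with no filter, and that of Iqgap3 did not pass under library totals or with no filter. The median difference over all genes was -0.11, and depth differs between the sets.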

How the results depend on the processing

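Of 199 counts recomputed outside the single-library omissions, 173 stayed within 1.5 times their value and 26 moved; of 4025 gene values 4021 kept their direction. The reversals were Plk1 (-0.38 under library totals alone, -0.062 with no filter), Mki67 (-0.241 under library totals) and Prc1 (0.0332 with no clone block). Library totals alone gave 0 higher and 35 lower in maturation, 1 higher and 31 lower in clones 1 to 13, 24 lower in clones 15 to 25, 1 lower for the difference between sets, 2 lower in intermediate against classical, and 5 higher and 1 lower in class 4 against class 1. DESeq2 gave 4 for the clone effect, 1 higher and 6 lower for the difference between sets, 20 lower in intermediate against classical and 33 lower in nonclassical against intermediate. No filter gave 1 for the clone effect, 1 higher and 1 lower for the difference between sets, 1 higher and 9 lower in class 4 against class 1, and 2 lower in class 4 against the others. RLE size factors, and leaving out clone 21 or clone 15, gave 1 higher for the difference between sets, and RLE gave 4 lower in intermediate against classical. No centring gave 3 correlations. With 1 library left out, counts ranged from 0 to 35 lower in nonclassical against classical, 0 to 2 lower in intermediate against classical, 8 to 34 higher in class 1 against the others, 23 to 29 higher and 0 to 2 lower in class 4 against the others, 23 to 40 higher in class 3 against class 1, 33 to 39 in class 3 against class 4, and 0 to 2 higher and 1 to 8 lower in class 4 against class 1. A lone library was assumed to vary like the other groups. Replicate numbers of the classes share only a number (r from -0.0106 to 0.0728 between classes). The replicate block gave 2 lower in intermediate against classical, 29 in nonclassical against classical and 39 higher in class 3 against class 1. A fit of the clones with no clone block, which leaves out the pairing of states within a clone, gave 17 lower and 1 higher. The cause of these shifts was not tested. Shallow libraries of clones 15 to 25 and 2 libraries a population limit the precision.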
